A study of Mus musculus with 40 samples.

Results

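The Trim (tripartite motif) genes are described here in macrophages of 2 mouse strains before and after stimulation with a bacterial lipid. The expression table held 66 symbols made of Trim and a number, with 85 transcripts. Where a symbol had several transcripts, the 1 with most tags on average in RNA-Seq was kept, and a gene counted as a member when it reached 20 tags per 10 M (tags are sequencing reads in exons, scaled to a library of 10 M, where M is mega) in at least 2 RNA-Seq libraries. This left 34 members, among 10715 of 22865 genes of the table that reached the same level. The choice used the level of expression and no difference between groups. Trim45 lay just inside the limit, with 28.4 and 45.2 tags in the untreated cells of C57BL6/J and BALBc/J and 27.2 in BALBc/J after 1 hr, and Trim34a, with at most 16.8 tags, lay just outside.

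The cells were macrophages washed from the peritoneum 4 days after an injection of 3 ml of thioglycollate broth, which recruits such cells, and kept overnight in dishes. C57BL6/J and BALBc/J are inbred mouse strains. Cells of each received fresh medium alone (untreated) or medium with 100 ng/ml Kdo2-lipid A (KLA), the lipid end of endotoxin, which activates Toll-like receptor 4. Polyadenylated RNA was sequenced untreated and after 1 and 4 hr, with 1 library for each strain and time. GRO-Seq, which labels RNA as the polymerase makes it, and ChIP-Seq of the macrophage factors PU.1 and C/EBPa and of the histone marks H3K4me2 and H3K27Ac were done untreated and after 1 hr, again with 1 library each. ChIP-Seq of p65, the NF-kB subunit that enters the nucleus after stimulation, had 2 lists for each strain, all after 1 hr. The cells are a cultured, elicited population, and the labels used here give no age or number of animals. They also do not say that libraries came from separate animals, so the p-values measure the spread between these libraries alone.

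Trim proteins carry a RING finger, 1 or more B-box zinc fingers and a coiled coil, and most act as E3 ubiquitin ligases: they take ubiquitin from a conjugating enzyme and place it on a target or build free ubiquitin chains. Many sit in the sensing of viral RNA, DNA and bacterial lipid, where they ubiquitinate sensors and adaptors or restrain the signal, and a number of them are themselves interferon-induced. In the mouse, chromosome 7 holds Trim6, Trim12, Trim21, Trim30, Trim34 and Trim68 genes, called here the chromosome 7 cluster. Trim21 and Trim68 lie apart from the others. The Trim30 and Trim12 genes were duplicated in rodents. Genes that respond to type I interferon often carry the interferon-stimulated response element, ISRE.

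Of the RefSeq promoter windows (GRCm38.p6; 250 bases before to 50 after a start, 300 in all), 33 belonged to 24 of the 34 members; Trim3, Trim8, Trim11, Trim14, Trim16, Trim29, Trim33, Trim35, Trim36 and Trim65 had none in the table used here. An ISRE core was searched as GAAANNGAA on both strands. It was found in 7 of 24 members (8 of 33 windows), and in 8.56% of all 32851 windows of the table. The 29-base stretches around the matches are given 5′ to 3′ in the direction of the gene, because 6 of the 7 genes are those whose RNA rose after 4 hr. Capitals mark the match or overlapping matches.
Trim30d: gttctttagtTTCTTTTTCtcagttcctg
Trim30a: gttctttagtTTCTTTTTCtcagttcctg
Trim21: ctgagagGAAACTGAAAGTGAAatttgga
Trim12c: gagttgtggtTTCTGTTTCatttccagct
Trim25: gcccctcctgTTCAGTTTCgattccttcc
Trim26: ttccgatTTCACTTTCCTTTTCtcgggcc
Trim2: cagctttggtTTCCTTTTCtctaagacag

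These stretches hold the matches at bases -40 to -32 (Trim30d, chr7:104507881-104507889), -35 to -27 (Trim30a, chr7:104465220-104465228), 14 to 28 (Trim21, chr7:102565455-102565469), -28 to -20 (Trim12c, chr7:104353369-104353377), -9 to -1 (Trim25, chr11:88999394-88999402), -159 to -145 (Trim26, chr17:36836987-36837001) and 30 to 38 (Trim2, chr3:84212801-84212809). The start base counts as 1 and the base before it as -1. Trim25 and Trim26 lie on the plus strand and the others on the minus strand. Trim21 and Trim26 each carry 2 overlapping matches. Trim30a has a second window in the table, around another start, with a match of its own at bases 4 to 12 (chr7:104446114-104446122), and Trim2 has the match in 1 of its 5 windows. By position, the start of the Trim2 transcript measured here falls in another of its windows, which has no match. The 29 bases of Trim30d and Trim30a are identical.

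The 250 bases before the start are shown for the 3 members with the largest change in RNA, Trim30d (chr7:104507850-104508099, 41.2% G and C), Trim30a (chr7:104465194-104465443, 43.2%) and Trim21 (chr7:102565483-102565732, 56.0%), all on the minus strand and written in the direction of the gene. Capitals mark the ISRE core.
Trim30d promoter: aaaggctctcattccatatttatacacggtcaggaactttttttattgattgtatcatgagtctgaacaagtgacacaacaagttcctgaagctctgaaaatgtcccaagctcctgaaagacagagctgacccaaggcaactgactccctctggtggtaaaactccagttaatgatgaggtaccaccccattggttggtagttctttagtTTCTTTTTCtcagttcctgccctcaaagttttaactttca
Trim30a promoter: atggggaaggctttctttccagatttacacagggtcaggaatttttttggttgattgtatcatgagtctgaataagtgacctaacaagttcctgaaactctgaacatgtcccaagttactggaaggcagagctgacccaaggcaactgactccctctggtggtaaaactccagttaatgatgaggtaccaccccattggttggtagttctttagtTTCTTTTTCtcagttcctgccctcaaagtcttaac
Trim21 promoter: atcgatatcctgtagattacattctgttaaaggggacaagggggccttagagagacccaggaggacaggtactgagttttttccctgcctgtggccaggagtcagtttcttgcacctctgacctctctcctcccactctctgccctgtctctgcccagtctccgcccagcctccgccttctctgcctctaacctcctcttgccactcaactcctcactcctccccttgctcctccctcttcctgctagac
The promoters of Trim30d and Trim30a, which are neighbours with starts 42656 bases apart, were identical at 227 of 255 aligned positions (89.0%), the gaps included. Trim21 matched them at 44.3% and 44.1%. In Trim21 the ISRE match lies after the start, so the 250 bases shown hold none. A kappaB form (GGANTTTCC) was found in no member and in 1.25% of all windows. A PU.1 form (GAGGAAGT) was found in Trim12c, Trim2 and Trim24 (3 of 33 windows), and in 3.20% of all windows. Trim2 and Trim24 each have it in 1 of several windows, and by position that of Trim2 is not the window of the measured start. A match describes letters and does not show that a factor binds, and the absence of one covers only these windows.

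The RNA-Seq libraries held 17.0 to 20.3 M tags, the GRO-Seq libraries 39.4 to 48.3 M (3.08 to 4.35 M of them in exons) and the ChIP-Seq libraries 7.10 to 14.4 M. A count of 3 tags, the limit that a count of 0 allows, stands for 1.48 to 1.77 tags per 10 M in RNA-Seq and for 0.62 to 0.76 in GRO-Seq, for counting error only. All 8 macrophage markers were expressed, with a sum of 76040 to 102400 tags per 10 M in each library. Cd3e and Cd3d (T cells), Epx (eosinophils) and Hba-a1 (red cells) stayed under 1 in all 6. Other markers on such lists were present. Siglec5, listed for eosinophils, had 52.1 to 88.2 tags, and the B cell list summed to 37.7 to 71.6. The mesothelial and fibroblast list summed to 898 to 2481. Lck, listed for T and NK cells, reached 186 tags in C57BL6/J and 235 in BALBc/J at 4 hr. In bulk RNA, fewer cells of a type and less RNA per cell cannot be told apart. Tags of both strains were placed on mm9, which comes from C57BL/6J, and the sources used here do not give how multiply placed tags and strand were treated, so the values of the close copies on chromosome 7, and of Trim13, Trim2, Trim32 and Trim35, which overlap a gene on the opposite strand, are uncertain.

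In untreated cells the most abundant members per kilobase of transcript were Trim35, a RING protein of haematopoietic cells (418 tags per 10 M per kb in C57BL6/J and 470 in BALBc/J), Trim8, a regulator of NF-kB and STAT3 signalling (336 and 322), Trim25, the ligase of the RNA sensor RIG-I (340 and 317), and Trim28, the co-repressor KAP1 (298 and 298). Next came Trim41 (182 and 172) and Trim30a (141 and 179). At the low end were Trim45 (6.11 and 9.72), Trim2 (7.39 and 8.50), Trim6 (9.89 and 9.02) and Trim56 (9.22 and 11.1). Of the 33 neighbouring pairs in this order, 23 overlapped between the strains, Trim8 and Trim25 among them, so most neighbours were not separated by the spread between the 2 libraries.

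KLA changed which member was most abundant. Summed per kilobase over the 34 members, the level was 3068 untreated, 2384 after 1 hr and 5694 after 4 hr in C57BL6/J, and 3185, 2373 and 7558 in BALBc/J. Trim35 held the first place in both strains untreated. After 4 hr Trim30a took 32.7% of the sum in C57BL6/J and 33.1% in BALBc/J, and Trim30a and Trim25 together 45.7% and 50.6%, against 15.7% and 15.6% untreated. The summed level in each strain was thus lowest at 1 hr and highest at 4 hr.

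Changes were estimated with limma on the log2 of tags per 10 M plus 10, with treatment and strain as terms and p-values adjusted over all genes by Benjamini-Hochberg. A gene is said to have risen or fallen where the adjusted p was under 0.05 and the change at least 1 on this scale, which understates the change of genes with few tags. The contrasts of 1 hr and of 4 hr against no treatment use the same untreated libraries. After 4 hr, 8 members rose (23.5%) and 8 fell (23.5%), where 8.06% of all 10715 genes rose and 21.1% fell, so the share of members that fell lay close to that of all genes. The median of the members was -0.49 and that of all genes -0.47. With the libraries centred on their medians, 8 members rose and 4 fell, and 1250 genes rose and 1023 fell. The 8 that rose stayed above both thresholds when any single library was left out, while the number that fell then ranged from 6 to 13, with 13 where the BALBc/J library of 4 hr was left out.

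**Figure D1:**
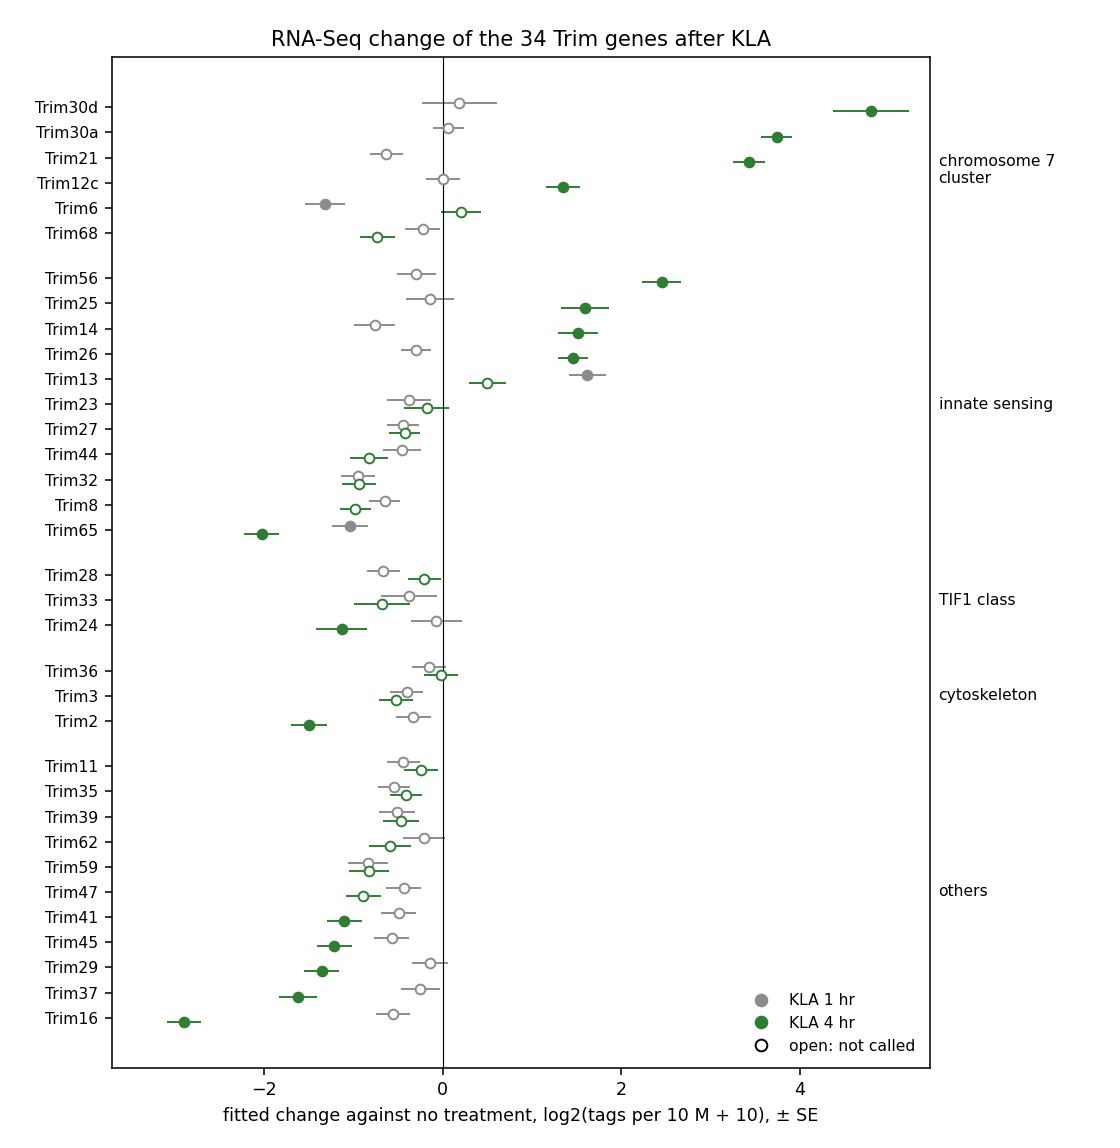
Fitted change of each of the 34 members in RNA-Seq after 1 hr (grey) and 4 hr (green) of KLA against no treatment, on the scale of log2(tags per 10 M + 10), with bars of 1 standard error and members grouped by role; open symbols did not pass the test. At 4 hr the members that rose belong to the chromosome 7 cluster and to the group of innate sensing and NF-kB signalling, with Trim30d highest at 4.79 and Trim16 lowest at -2.89.

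The chromosome 7 cluster gave the largest increases: 4 of its 6 members rose at 4 hr, none fell, and their median change was 2.39. This group was assigned from known roles and not from position, with earlier results of these data known. Trim21 and Trim68 lie apart from its other members. Trim3 (-0.52 at 4 hr) and Trim28 (-0.20), also on chromosome 7 and not called, were placed in other groups. Trim30d (NM_199146, chromosome 7, 111618528 to 111656363 in mm9) is the adjacent copy of Trim30a. In C57BL6/J it had 92.1 tags untreated, 108 after 1 hr and 1483 after 4 hr, and in BALBc/J 20.3, 23.8 and 1583. Both 4 hr libraries lay far above the other 4, and the strains differed at the start and were close at the end. The fitted change was 4.79 ± 0.42 (SE; limma, adjusted p = 5.86e-05), or 27.7-fold on this scale, the 70th largest of 10715 genes.

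Trim30a (NM_009099, chromosome 7, 111557539 to 111613707) encodes an inducible brake on Toll-like receptor signalling that promotes loss of TAB2 and TAB3. It had 532, 605 and 7014 tags at 0, 1 and 4 hr in C57BL6/J and 675, 650 and 9416 in BALBc/J. The untreated and 1 hr libraries overlapped, and those of 4 hr stood apart in both strains. The change at 4 hr was 3.74 ± 0.17 (SE; limma, adjusted p = 2.61e-06), or 13.4-fold.

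Trim21 (NM_009277, chromosome 7, 109706435 to 109713983) is the cytosolic receptor for the constant part of antibodies. It had 154, 98.8 and 1618 tags in C57BL6/J and 172, 105 and 2124 in BALBc/J. Both 1 hr libraries lay below both untreated ones, by less than the set size of change, and the 4 hr libraries lay above all others. The change at 4 hr was 3.43 ± 0.18 (SE; limma, adjusted p = 5.09e-06), and against 1 hr it was 4.06 ± 0.18 (adjusted p = 3.96e-06).

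Trim12c, a mouse relative of the retroviral restriction factor TRIM5, had 102, 118 and 306 tags in C57BL6/J and 171, 150 and 406 in BALBc/J. It rose by 1.35 ± 0.19 (SE; limma, adjusted p = 0.000723). Trim6, which builds free ubiquitin chains in the interferon pathway, moved first down and then back: it had 37.9, 14.4 and 53.1 tags in C57BL6/J and 34.5, 4.05 and 34.6 in BALBc/J. The 1 hr libraries were the lowest of each strain. Trim68, a ligase known for acting on the androgen receptor, had 46.3, 43.7 and 24.0 tags in C57BL6/J and 90.4, 67.1 and 50.4 in BALBc/J, a change of -0.73 at 4 hr that did not reach the set size.

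Among the 11 members known from innate sensing and NF-kB signalling, 4 rose and 1 fell at 4 hr, and the median was -0.18. Trim56 (NM_201373, chromosome 5, 137587155 to 137592077), an antiviral ligase of the cGAS and STING pathway, had 33.5, 27.5 and 192 tags in C57BL6/J and 40.3, 28.9 and 315 in BALBc/J. The 4 hr libraries stood above all the others. It rose by 2.45 ± 0.22 (SE; limma, adjusted p = 6.41e-05), or 5.47-fold.

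Trim25 (NM_009546, chromosome 11, 88860716 to 88881607) was already abundant, with 1889, 1864 and 4125 tags in C57BL6/J and 1761, 1468 and 7358 in BALBc/J. It rose at 4 hr in both strains, and the increase was 1.12 in C57BL6/J and 2.06 in BALBc/J, a difference that cannot be tested with 1 library each. The fitted change was 1.59 ± 0.27 (SE; limma, adjusted p = 0.00166).

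Trim14, an adaptor without a RING finger at the mitochondrial protein MAVS, had 159, 93.9 and 381 tags in C57BL6/J and 120, 63.3 and 449 in BALBc/J. It rose by 1.52 ± 0.23 against no treatment (SE; limma, adjusted p = 0.000928) and by 2.28 ± 0.23 against 1 hr (adjusted p = 0.000149). The 1 hr libraries were the lowest of each strain. Trim26, which acts on IRF3 and its kinase, had 414, 345 and 1210 tags in C57BL6/J and 487, 384 and 1300 in BALBc/J. It rose by 1.46 ± 0.17 against no treatment (SE; limma, adjusted p = 0.000253).

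Trim65, the ligase of the RNA sensor MDA5, went the other way. Its tags were 58.8, 26.6 and 6.24 in C57BL6/J and 50.2, 16.9 and 5.39 in BALBc/J, lower at each later time in both strains with no overlap between times. The change at 4 hr was -2.03 ± 0.20 (SE; limma, adjusted p = 0.000104). MDA5 itself is encoded by Ifih1, whose RNA rose by 5.24 at 4 hr.

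**Figure D2:**
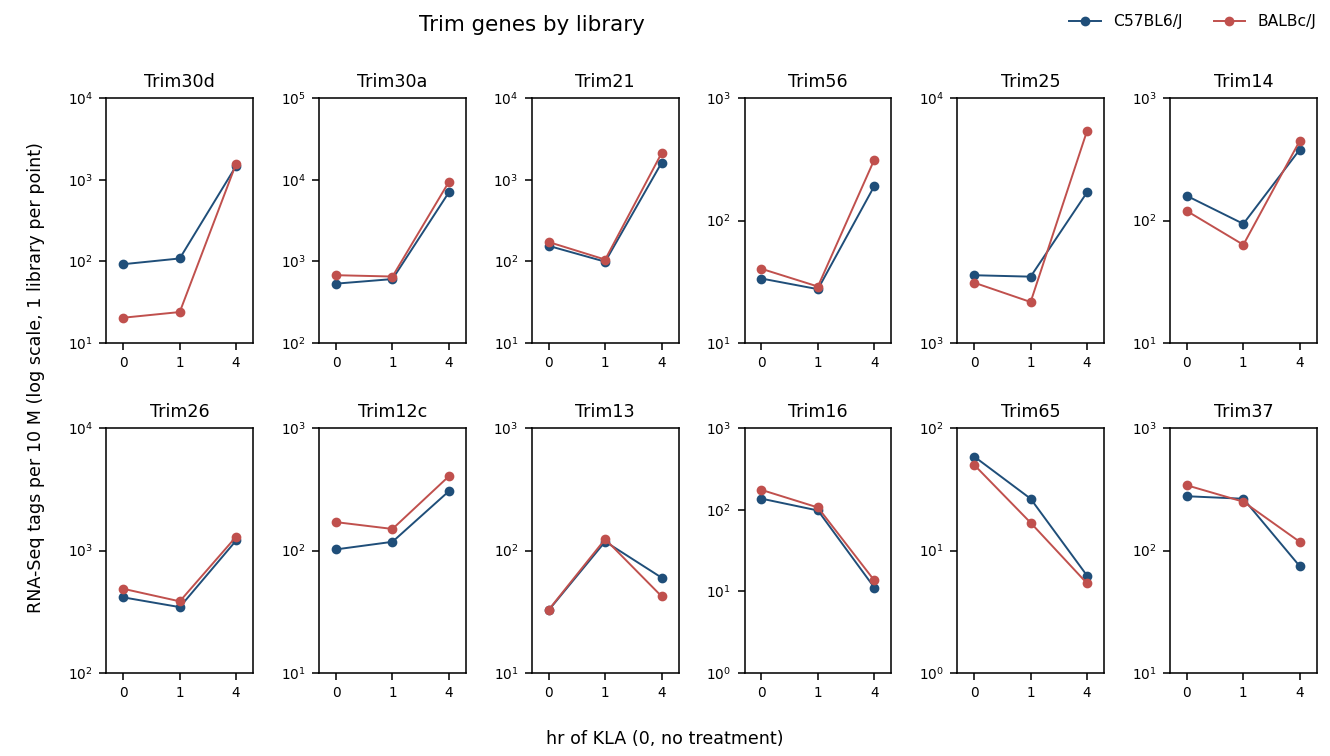
RNA-Seq tags per 10 M (log axis) at 0, 1 and 4 hr of KLA for 12 members, with 1 line for each strain and 1 library at each point. Trim30d, Trim30a, Trim21, Trim56, Trim25, Trim14, Trim26 and Trim12c are highest at 4 hr in both strains, Trim13 is highest at 1 hr, and Trim16, Trim65 and Trim37 are lowest at 4 hr.

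The other members that fell at 4 hr came from the TIF1 class, the group of cytoskeleton, muscle and nervous system, and the members with other roles, and none from the chromosome 7 cluster. Trim16 (NM_053169, chromosome 11, 62633754 to 62656450), which has no RING finger and takes part in the autophagy of damaged membranes, had 137, 98.2 and 11.1 tags in C57BL6/J and 176, 107 and 13.6 in BALBc/J. The times did not overlap. It fell by 2.89 ± 0.19 (SE; limma, adjusted p = 1.48e-05), or 7.41-fold, and changed by -2.33 ± 0.19 between 1 and 4 hr (adjusted p = 5.41e-05).

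Trim37, a ligase that ubiquitinates histone H2A and peroxisomal proteins, had 278, 266 and 74.5 tags in C57BL6/J and 342, 251 and 118 in BALBc/J. It fell by 1.62 ± 0.21 (SE; limma, adjusted p = 0.0005), and most of the fall came after the first hour. Trim2, a ligase of neurofilament light chain, had 42.5, 37.3 and 9.25 tags in C57BL6/J and 48.9, 31.7 and 10.2 in BALBc/J. It fell by 1.50 ± 0.20 (SE; limma, adjusted p = 0.00049).

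The remaining 4 that fell had smaller changes. Trim29, which lacks a RING finger and is known from epithelial DNA repair, fell by 1.35 ± 0.20, and Trim45, a regulator of MAP kinase signalling, fell by 1.21 ± 0.20. Trim24, a co-repressor of nuclear receptors in the TIF1 class, fell by 1.13 ± 0.29, and Trim41 fell by 1.10 ± 0.19 (all SE; limma, adjusted p between 0.000829 for Trim29 and 0.0108 for Trim24). The fall of Trim24 rested on C57BL6/J: it had 89.7, 90.9 and 22.6 tags there and 103, 91.0 and 62.3 in BALBc/J, and without the C57BL6/J library of 4 hr the change was -0.60. Without that library Trim41 was also no longer called, at -0.89. Relative to the median gene, Trim24, Trim29, Trim41 and Trim45 were not called either, and with a pseudocount of 50 neither were Trim2 (-0.68), Trim24 (-0.69), Trim29 (-0.93), Trim45 (-0.53) and Trim65 (-0.90). Trim33, the relative of Trim24 that acts on SMAD4, had 188, 169 and 78.4 tags in C57BL6/J and 188, 119 and 163 in BALBc/J, and was called only where the BALBc/J library of 4 hr was left out (-1.28). The third TIF1 member tested, Trim28, had 965, 522 and 731 tags in C57BL6/J and 967, 702 and 960 in BALBc/J.

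At 4 hr some markers of other cells moved as well. Of the T and NK cell markers, 1 of the 5 listed passed the level and rose, the kinase gene Lck, and the sum of the list went from 5.32 and 13.4 tags untreated to 189 and 236. Of the neutrophil markers S100a8 rose, and the sum of the list was 135 and 79.6 untreated and 341 and 151 at 4 hr. Of the 4 dendritic cell markers, with sums of 46.6 and 56.3 untreated and 113 and 147 at 4 hr, 2 were tested: Ccr7 rose, from 15.1 and 23.6 to 62.7 and 109 tags, and Zbtb46 was not called. Flt3, under the level of the test, had 9.35 and 11.3 tags untreated and 3.04 and 2.84 at 4 hr. The mast cell marker Cpa3 fell, from 23.5 and 27.6 to 5.74 and 4.40 tags, and the sum of its list was 37.6 and 56.3 untreated and 11.8 and 17.4 at 4 hr. None of the 6 mesothelial and fibroblast markers was called at 4 hr. Their sum went from 1951 to 898 tags in C57BL6/J and from 2382 to 2481 in BALBc/J. S100a9, Mpo, Elane, Ncr1, Cd3e and Cd3d stayed at or under 2.29 tags in all 6 libraries. The part of all these markers in the changes of the Trim genes was not tested.

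By the RefSeq windows, the ISRE core was found in 6 of the 7 members that rose at 4 hr and had a window (8 rose), in 1 of 5 that fell (8 fell) and in 0 of 12 that were not called (18 were not). Trim56 is the member that rose and has a window without the match, and Trim2 the member that fell and has one with it. The Trim2 match lies in the window of a start other than that of the transcript measured. By position, the window of the measured start has no match. These are counts with no test.

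After 1 hr few members had changed: 1 rose and 2 fell, where 1.82% of all genes rose and 1.45% fell. The median of the members was -0.42 and that of all genes -0.21, and 30 of the 34 members lay below 0, or 25 with the libraries centred on their medians. Trim13 (NM_023233, chromosome 14, 62218348 to 62224782), a ligase of the endoplasmic reticulum that restrains MDA5 signalling, had 32.6, 118 and 60.0 tags in C57BL6/J and 32.9, 124 and 42.3 in BALBc/J. It is the member with its peak at 1 hr in both strains. It rose by 1.62 ± 0.21 at 1 hr (SE; limma, adjusted p = 0.00393), or 3.07-fold, and fell by 1.12 ± 0.21 from 1 to 4 hr (adjusted p = 0.00346). The opposite-strand gene Dleu2, which overlaps it, had a mean of 34.9 tags.

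Trim6 fell by 1.32 ± 0.22 at 1 hr (SE; limma, adjusted p = 0.0155) and rose by 1.52 ± 0.22 from 1 to 4 hr (adjusted p = 0.0011). Trim65 fell by 1.04 ± 0.20 at 1 hr (SE; limma, adjusted p = 0.0264). Without the filter on low values none of the 3 genes passed the adjusted p at 1 hr. The call of Trim6 ended without the untreated BALBc/J library, and that of Trim65 without either untreated library or the BALBc/J library of 1 hr, and relative to the median gene (-0.82). With a pseudocount of 50 neither was called (-0.55 and -0.55).

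Between 1 and 4 hr, 9 members rose and 6 fell, where 8.61% of all genes rose and 13.4% fell. The medians were 0.01 for the members and -0.27 for all genes. The 9 that rose, each also called when any single library was left out, were Trim30d (4.61), Trim21, Trim30a (3.68), Trim56 (2.75), Trim14, Trim26 (1.76), Trim25 (1.73), Trim6 and Trim12c (1.34). With a pseudocount of 50, Trim6 was not called (0.66). The 6 that fell were Trim16, Trim37 (-1.37), Trim29 (-1.21), Trim2 (-1.17), Trim13 and Trim24 (-1.06). Trim24 was not called without the C57BL6/J library of 1 hr or of 4 hr (-0.53 without the latter), nor Trim13 without the BALBc/J library of 1 hr or of 4 hr. With the libraries centred on their medians 9 members rose and 2 fell, and 1169 genes rose and 957 fell.

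Nascent RNA was followed by GRO-Seq at 1 hr. Of the 27 members at the level in these libraries none rose and 4 fell, where 4.29% of 9121 genes rose and 15.5% fell, so the share that fell lay close to that of all genes. With limma, 11 of the 27 had an unadjusted p under 0.05 in either direction, where 3432 of all 9121 genes did, so the shares were close. The adjusted p was under 0.05 for 7 of the 27. These 4 libraries leave 1 residual degree of freedom, and limma took the spread from all genes together. The median was -0.35 for the members and -0.34 for all genes. Relative to the median gene, 1 member rose (Trim36, at 1.23) and 1 fell (Trim65), with 619 genes higher and 638 lower.

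Trim65 fell in nascent RNA too, from 64.5 to 13.1 tags in C57BL6/J and from 72.6 to 20.7 in BALBc/J. The change was -1.56 ± 0.34 (SE; limma, adjusted p = 6.68e-05). Trim37 went from 46.7 to 12.3 and from 47.4 to 20.0, a change of -1.14 ± 0.32 (SE; limma, adjusted p = 0.00223). In both genes the treated libraries lay below both untreated ones.

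Trim16 went from 42.3 to 8.47 tags in C57BL6/J and from 47.6 to 29.1 in BALBc/J (-1.03 ± 0.32, SE; limma, adjusted p = 0.00644). Trim44, which stabilises MAVS, went from 149 to 45.3 and from 90.6 to 50.8 (-1.13 ± 0.35, SE; limma, adjusted p = 0.00731). The groups did not overlap, but the size differed by strain: the change was -1.50 in C57BL6/J and -0.56 in BALBc/J for Trim16, and -1.53 and -0.73 for Trim44. None of the 4 genes was called with a pseudocount of 50. Over all 9121 genes the median change was -0.57 in C57BL6/J and -0.10 in BALBc/J.

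Of the 8 members whose RNA rose at 4 hr, Trim30d was under the level in GRO-Seq, and the other 7 were not called in nascent RNA at 1 hr. Trim30a had 73.3 tags untreated and 41.3 after 1 hr in C57BL6/J, and 50.5 and 62.3 in BALBc/J. Trim21 had 47.7 and 41.8, and 39.0 and 48.9. Trim25 had 340 and 282, and 430 and 785. In each of these 3 genes the treated value was the lower one in C57BL6/J and the higher one in BALBc/J. Relative to the median change of all genes in each strain, this held for Trim30a (-0.12 and 0.36) and not for Trim21 (0.42 and 0.37) or Trim25 (0.31 and 0.96). Trim13, called in RNA at 1 hr, was under the level in GRO-Seq, with 18.2 and 15.1 tags in C57BL6/J and 17.97 and 30.4 in BALBc/J.

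Between the strains 1 member was called in RNA, Trim36, a ligase of microtubules and the cell cycle. Its level was higher in C57BL6/J, and no member was called lower. In either direction 7 of the 34 members had an unadjusted p under 0.05 by limma, where 2209 of all 10715 genes did. The adjusted p was under 0.05 for 2 of the 34. Over all genes 1.2% were higher and 2.52% lower in C57BL6/J. In this contrast the 3 treatments of a strain stand in as its replicates, so the SE and p-values do not measure the spread between animals. Trim36 (NM_001170855) had 312, 292 and 348 tags in C57BL6/J at 0, 1 and 4 hr and 103, 88.3 and 89.3 in BALBc/J. Every C57BL6/J library lay above every BALBc/J library, by 3.03-fold untreated, 3.31-fold at 1 hr and 3.90-fold at 4 hr. The fitted difference was 1.66 ± 0.16 (SE; limma, adjusted p = 0.000701). In nascent RNA Trim36 had 112 and 156 tags in C57BL6/J and 37.3 and 107 in BALBc/J, so the order was the same and was not called.

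For Trim30d the ratio between the strains was not the same at all times, which cannot be tested with 1 library each. C57BL6/J had 4.54 times the BALBc/J tags untreated, 4.55 times after 1 hr and 0.94 times after 4 hr. The fitted difference of 1.16 ± 0.34 was not called (limma, adjusted p = 0.0839), but was where either library of 4 hr was left out (1.78) or the libraries were centred on their medians (1.25). Seen by strain, the increase at 4 hr was 3.87 in C57BL6/J and 5.72 in BALBc/J. Nascent RNA gave 34.3 and 14.3 tags in C57BL6/J and 1.17 and 5.26 in BALBc/J, and was under the level of the test.

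Trim68 was lower in C57BL6/J at all 3 times, by 0.51, 0.65 and 0.48 times the BALBc/J tags. The difference of -0.73 ± 0.16 passed the adjusted p (limma, 0.0288) but not the size. Trim12c in nascent RNA was the member called lower in C57BL6/J, with 12.8 and 4.52 tags there and 40.3 and 22.7 in BALBc/J. Trim12c reached the level of the test in the BALBc/J libraries alone. It thus entered this contrast through the strain in which it was higher. Its groups did not overlap, and the difference was -1.16 ± 0.25 (SE; limma, adjusted p = 0.000788). No member was called higher in C57BL6/J in nascent RNA, and over all genes 0.428% were higher and 0.482% lower. In either direction 3 of the 27 members had an unadjusted p under 0.05 by limma, where 665 of all 9121 genes did. Relative to the median gene, Trim12c was no longer called (-0.93), nor was it with a pseudocount of 50 (-0.47), and Trim36 was (1.16). In the RNA of Trim12c the difference was -0.47 and was not called.

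**Figure D3:**
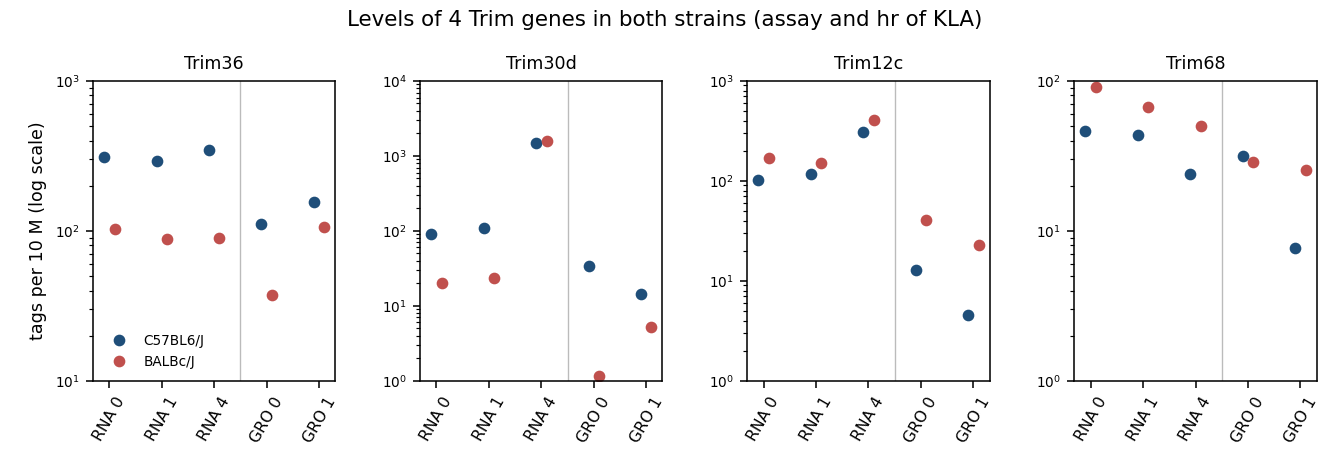
Tags per 10 M of Trim36, Trim30d, Trim12c and Trim68 in C57BL6/J and BALBc/J, in RNA-Seq at 0, 1 and 4 hr and in GRO-Seq at 0 and 1 hr of KLA, 1 library at each point. Trim36 is higher in C57BL6/J throughout, and the gap in Trim30d RNA (92.1 against 20.3 untreated) is gone at 4 hr (1483 against 1583).

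The mesothelial and fibroblast markers also differed between the strains, with 2 of 6 lower in C57BL6/J by the same test and sums of 898 to 1951 tags there and 1677 to 2481 in BALBc/J. Of the 8 macrophage markers, 1 was higher in C57BL6/J. By this test 1.2% of all genes were higher in C57BL6/J and 2.52% lower. The part of these markers in the strain differences of the Trim genes was not tested. A base difference between a BALBc/J read and the reference was not examined here.

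The 14 members called in no contrast covered a wide range of levels. Trim35 ran from 1028 to 1733 tags over the 6 RNA-Seq libraries, Trim8 from 497 to 1088, Trim28 from 522 to 967 and Trim27 from 230 to 370. Trim3, a kinesin-binding ligase, ran from 213 to 390, Trim11 from 163 to 278, Trim47 from 121 to 269 and Trim23, which carries an ARF domain, from 94.1 to 161. Trim33 ran from 78.4 to 188, Trim32, a ligase of STING, from 73.9 to 185, and Trim39 from 60.8 to 104. Trim62, a ligase of the antifungal adaptor CARD9, ran from 27.6 to 68.0, Trim68 from 24.0 to 90.4 and Trim59 from 13.3 to 52.2. Among them the largest changes that were not called were those of Trim8 at 4 hr (-0.98) and Trim32 at 1 hr (-0.94).

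Other genes of the pathway were followed in lists. Of 22 tested genes of ubiquitin activation and conjugation (23 listed), 1 rose at 1 hr, the ubiquitin-like modifier Isg15 (2.53), and 4 rose at 4 hr: Isg15 (5.92), its protease Usp18 (5.51), its conjugating enzyme Ube2l6 (2.60) and its activating enzyme Uba7 (2.57). None fell at 4 hr, and the median was 0.15. Of all 10715 genes, 1.82% rose at 1 hr, and 8.06% rose and 21.1% fell at 4 hr. The 4 listed genes that rose at 4 hr are known parts of the Isg15 system. Apart from Ube2l6, none of the tested conjugating enzymes, those of the Ube2d and Ube2e families among them, was called at 4 hr.

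Of 24 tested genes of sensing and signalling on which Trim proteins act (25 listed), none was called at 1 hr in RNA, and 12 rose and 1 fell at 4 hr, with a median of 0.89. Among the largest increases were those of the RNA sensors Ifih1 (5.24), Ddx58, which encodes RIG-I (4.07), and Dhx58 (2.86), and of Irf7 (4.19), Stat2 (3.78), Myd88 (2.46) and Irf9 (2.08). The 1 that fell was Tab1 (-1.09). Among all genes 8.06% rose and 21.1% fell at 4 hr, and 1.82% rose and 1.45% fell at 1 hr. Of 4 tested relatives with a Trim fold under another name (7 listed), 3 rose at 4 hr: Mefv, the pyrin gene (3.60), Rnf135, a RIG-I ligase (2.25), and Pml, the scaffold of nuclear bodies (2.23). In nascent RNA at 1 hr Isg15 (2.58), Ifih1 (3.89) and Mefv (2.83) rose, as did the interferon receptor gene Ifnar2 (1.12), and Pml (-2.14) and Tab1 (-1.58) fell. There 4.29% of all 9121 genes rose and 15.5% fell.

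Peaks were taken from the deposited lists where the centre lay within 50 kb of a member's start, and their values are the authors' tags per 10 M. A p65 peak was used where a peak of list 1 overlapped one of list 2 of the same strain, and both values are given. In number the members looked like other genes at the level: 29 of 34 had a p65 peak in both strains, where 88.6% of all genes did. A region of H3K27Ac, a mark of active enhancers and promoters, covered the start of 28 of 34 members (82.4%) in each of the 4 lists, and of 77.9% to 82.2% of all genes. PU.1 covered the start of 9 to 11 members by list, and 33.0% to 33.5% of all genes. Of 220 PU.1 peaks near the members in untreated C57BL6/J, 175 (79.6%) were also found after KLA, against 78.4% of all peaks. Trim30a and Trim30d share part of their windows, and so do Trim47 and Trim65, whose starts are 20893 bases apart.

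The highest p65 values near any member stood at Trim13. A peak 10.9 kb upstream of its start had 663 and 963 tags in C57BL6/J and 601 and 893 in BALBc/J, and a second one 2.3 kb upstream had 410 and 628, and 469 and 586. At the first of these sites an H3K27Ac region was listed after KLA alone, with 126 tags in C57BL6/J and 149 in BALBc/J. The region over the start had 45.7 and 30.6 tags untreated and 314 and 360 after KLA, where it was wider and took in the 2.3 kb site. A PU.1 peak 9.7 kb upstream was likewise listed after KLA alone in both strains (16.5 and 17.5), and the one 2.4 kb upstream went from 36.0 to 42.9 in C57BL6/J and from 30.6 to 65.1 in BALBc/J.

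**Figure D4:**
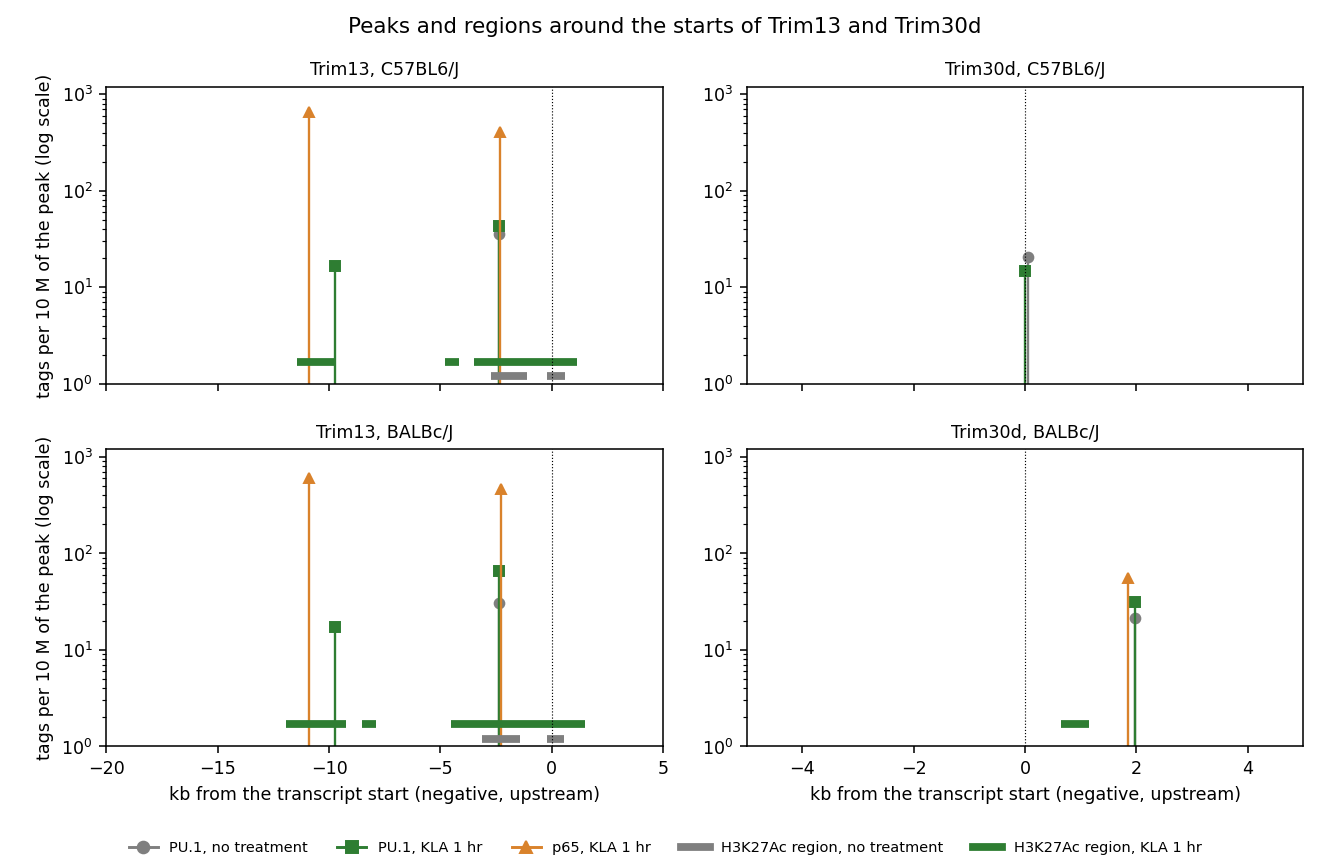
Peaks and regions around the starts of Trim13 and Trim30d in each strain, by distance from the start in kb; the height of a symbol is its tags per 10 M (log axis), for PU.1 untreated (grey circles), PU.1 after 1 hr of KLA (green squares) and p65 list 1 after KLA (orange triangles). Bars at the foot show the extent of H3K27Ac regions untreated (grey) and after KLA (green), not their height. Trim13 has both of its highest p65 peaks upstream in both strains, whereas the peaks near the start of Trim30d differ between C57BL6/J and BALBc/J.

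Near the members that rose at 4 hr, p65 peaks were listed for 8 of 8 in C57BL6/J and 7 of 8 in BALBc/J, where Trim26 had none. The counts were 8 and 6 of the 8 that fell, and 17 and 17 of the 18 not called. Of all genes at the level, 93.55% had such a peak in C57BL6/J and 89.75% in BALBc/J. The share of the members that rose thus lay near that of all genes. Trim30a had p65 peaks 0.19 kb upstream (53.6 and 29.2 in C57BL6/J, 28.0 and 17.7 in BALBc/J) and 21.4 kb downstream of the start (38.3 and 42.6, 39.0 and 50.0). At the latter site PU.1 was listed after KLA alone, with 37.9 tags in C57BL6/J and 71.4 in BALBc/J. An H3K27Ac region covered the start of Trim30a after KLA alone (99.7 and 84.5), while the untreated regions (60.4 and 26.6) lay just upstream. PU.1 0.4 kb upstream was in all 4 lists, with 62.2 and 61.0 tags in C57BL6/J and 65.9 and 50.8 in BALBc/J. Trim21 had p65 2.5 kb downstream of its start (52.2 and 51.3, 25.0 and 35.5) and PU.1 at the start in all 4 lists (49.8 and 42.9 in C57BL6/J untreated and treated, 41.4 and 28.6 in BALBc/J).

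Near Trim30d the lists differed by strain. PU.1 at its start was listed in C57BL6/J alone (20.7 untreated, 14.8 after KLA), and BALBc/J alone had PU.1 2.0 kb downstream (21.5 and 31.7), with p65 at 1.8 kb (56.0 and 44.3). The RNA of Trim30d untreated was the higher in C57BL6/J. With 1 PU.1 library for each strain and treatment, and peaks near the lower end of the lists, whose medians for PU.1 were 34.9 to 39.8 tags, these are descriptions of the lists.

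Trim25 had p65 2.9 kb upstream in both strains (242 and 216 in C57BL6/J, 279 and 139 in BALBc/J), and in C57BL6/J alone at the start (77.2 and 64.0). Its start lay in the H3K27Ac region with 2066 tags untreated and 1372 after KLA in C57BL6/J, and 1531 and 1190 in BALBc/J. Trim56 had its strongest p65 peak 40.4 kb downstream (497 and 513, 485 and 479) and a weaker one at the start (78.6 and 94.0, 53.0 and 52.4). Trim12c had p65 13.2 kb upstream (114 and 72.6 in C57BL6/J, 196 and 76.6 in BALBc/J) and over its start in both strains. Its strongest p65 peak lay further upstream (175 and 115 in C57BL6/J, 274 and 173 in BALBc/J).

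Trim36, the member called in RNA between the strains, had 8 p65 peaks in C57BL6/J and 5 in BALBc/J. The p65 lists held more peaks in C57BL6/J in general. Near all members there were 162 in C57BL6/J and 131 in BALBc/J, and the median over all genes was 5 and 4. The one 0.49 kb upstream of its start had 166 and 239 tags in C57BL6/J and 84.0 and 65.3 in BALBc/J. H3K27Ac at the start had 211 tags untreated and 176 after KLA in C57BL6/J, and 94.3 and 85.8 in BALBc/J. At both sites every value in C57BL6/J lay above every value in BALBc/J, as in the RNA. In the lists as wholes the median H3K27Ac region had 86.6 and 64.5 tags in C57BL6/J and 75.7 and 60.2 in BALBc/J, and the input used to call p65 in BALBc/J was that of C57BL6.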

How the data were processed

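RNA-Seq and GRO-Seq values came from the deposited expression table, which per the file headers holds log2 values of exon tags scaled by the authors to 10 M tags of each library, plus 1. These were turned back to tags per 10 M, and 10 was added before the log2 for the tests. Peak lists hold the authors' signal, as deposited, in tags per 10 M for each peak or region; per the file headers, peaks of factors had to be 4-fold above input and above their surroundings at a false discovery rate of 0.001. Per the submitters' processing notes, reads were placed on mm9 with Bowtie 0.12.7 and counted with HOMER; aligner settings and strand treatment are not given in the sources used here. The labels put each library in a strain, treatment and assay, and 30 of 40 samples were used. The input DNA, CB6F1/J and NOD/ShiLtJ samples were not analysed here.

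limma 3.58.1 in R 4.3.3 (lmFit, eBayes with a trend) was fitted on all genes with 20 tags per 10 M in 2 libraries of the assay: 10715 genes in the 6 RNA-Seq and 9121 in the 4 GRO-Seq libraries, with treatment and strain as additive terms, so that the strains stand in as the replicates of a treatment. In the strain contrasts the treatments stand in as the replicates of a strain. Peaks, promoters and figures were handled in Python 3.11.15. The code was tested on simulated data. The table's values carry a random part of 1 tag, and a fit on whole tags was added after the data were seen. The members, their roles and the other lists were chosen with earlier results of these data known. The rule was to give each member called in a contrast with its library values where it was among the 10 largest changes there, and otherwise by its fitted change, and members called in no contrast by their range. Among the alternatives were other pseudocounts (2 and 50), filters, scaling by the median, a fit without the trend, the transcript with the lowest mean, and leaving out each library. Some genes of the lists are not reported here by name.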

Additional observations from a re-analysis of the deposited data

Results flagged for a closer look

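In nascent RNA after 1 hr of KLA, 3 members moved in opposite directions in the strains, each by at least 0.25 on the log2 scale. The change of Trim25 in C57BL6/J minus that in BALBc/J was -1.12 (-0.26 and 0.85), that of Trim30a was -0.96 (-0.70 and 0.26) and that of Trim56 was -0.79 (-0.29 and 0.50). These differences were not tested, since there was 1 library for each strain and treatment. All 9121 genes had a median difference of -0.43 and the 27 members one of -0.53, in the same direction. Relative to the median change of all genes in each strain, Trim25 (0.31 and 0.96) and Trim56 (0.29 and 0.60) were above 0 in both strains, and Trim30a (-0.12 and 0.36) was not.

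Trim15, which was under the level of the rule in RNA-Seq (0.08 to 0.54 tags per 10 M), had 21.3 tags in its lowest GRO-Seq library. The others had 26.4, 30.9 and 29.3. The comparisons above did not use this gene, and a count of 0 would allow at most 0.76 tags. It was not tested whether these tags belong to Trim15 or to a neighbouring transcript.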

How the results depend on the processing

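No called change turned its direction. With libraries centred on their medians, 32 of 190 changes of members took the other sign, none of them called in either scaling, and the members' median in the GRO-Seq strain contrast went from -0.09 to 0.14. With a pseudocount of 50, members lower at 1 hr went from 2 to 0, at 4 hr from 8 to 3, between 1 and 4 hr from 6 to 2, in GRO-Seq at 1 hr from 4 to 0 and in the GRO-Seq strain contrast from 1 to 0. Without a filter on low values, 0 members were higher and 0 lower at 1 hr in RNA-Seq, and 1 was higher in C57BL6/J in GRO-Seq. The stricter filter, 50 tags in every library, leaves fewer members: 0 higher and 0 lower at 1 hr, 2 lower at 4 hr, 1 lower between 1 and 4 hr, and 0 lower in either GRO-Seq contrast. With libraries centred on their medians, 1 member was lower at 1 hr, 4 at 4 hr and 2 between 1 and 4 hr, 2 were higher in C57BL6/J in RNA-Seq, and GRO-Seq gave 1 higher and 1 lower at 1 hr and 1 higher and 0 lower in C57BL6/J. Leaving out each RNA-Seq library in turn gave 0 to 3 members lower at 1 hr, 6 to 13 lower at 4 hr, 5 to 6 lower between 1 and 4 hr, and 1 to 2 higher in C57BL6/J; 8 stayed higher at 4 hr. A lone library of a treatment is then assumed to vary like the others. In GRO-Seq this leaves no residual, so values were compared with no test. Whole tags, the lowest transcript and no trend each left all 202 of 202 values on their side of the thresholds. Members with p65 in both strains numbered 32 and 33 by each list alone, 22 within 10 kb and 21 with 30 tags or more, against 29. Of untreated C57BL6/J C/EBPa peaks near members, 75.2% were found after KLA, and 60.3% where centres had to lie within 50 bp. The cause of these moves was not tested, apart from the smaller number of members under the stricter filter. No paired analysis was possible because only the p65 lists carry replicate numbers, and they enter no test; the treatment contrasts already compare libraries within each strain. Depth limits members near 20 tags, such as Trim45, Trim6 and Trim2, most.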
